A study of Drosophila melanogaster with 2 samples.

Results

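Of the 2841 peaks of peb-eGFP on the main chromosomes of the fly, 540 (19.0%) had their summit at a head-to-head pair of protein-coding genes. The tagged protein is pebbled (peb), a zinc finger transcription factor also called hindsight, whose mammalian homologue is RREB1. Binding was measured by ChIP-seq, with anti-GFP, in entire embryos of Drosophila melanogaster collected at 0 to 24 h from flies with a peb-eGFP transgene. The study has a single group of 2 biological replicates. Whole embryos mix all tissues and stages, so a peak cannot be given to a cell type, and read depth behind a peak is unknown here. A peak was taken when its summit lay within 1000 bp of the transcription start sites (TSSs) of 2 or more genes on opposite strands, the minus-strand TSS being the lower coordinate. The rule used annotation and position only, not the strength of a peak. The 540 peaks lay at 501 different pairs of 999 genes in all, 463 pairs with 1 peak, 37 with 2 and 1 with 3. There were 500 peaks within reach of just 2 genes, 36 of 3 genes and 4 of more.

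In a head-to-head, or divergent, pair the genes are transcribed away from each other, and the stretch between their TSSs holds the promoters of both. Such pairs are common in compact genomes such as that of the fly, and many of their genes are expressed in most cells. Open, nucleosome-poor promoter DNA of this kind is often bound by many factors, among them architectural proteins such as BEAF-32 and the replication-related element factor DREF. Pebbled is best known for roles in the amnioserosa, trachea, midgut and developing eye of the fly.

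The DNA at the strongest of these peaks is shown for 8 pairs, as the forward strand of dm6, 100 bp either side of the summit but cut back to bases outside annotated exons. They are the 8 strongest peaks with the summit between both TSSs, among those on X, 2L, 3L and 3R. The windows are chrX:2703853-2703986, chr3R:29736746-29736946, chr3L:5139396-5139587, chr3R:15229444-15229644, chr2L:13835368-13835563, chr3R:27636087-27636287, chr3L:15982911-15983111 and chr3L:9426763-9426963, read from the RefSeq copy of the assembly. Each lies between the genes of its pair, and the minus-strand gene is named first. Capitals mark every match, on either strand, to the 10 letter patterns searched. Most are matches to CGATA or TATAAA, read on one strand or the other.
Ugalt/eIF2Bbeta: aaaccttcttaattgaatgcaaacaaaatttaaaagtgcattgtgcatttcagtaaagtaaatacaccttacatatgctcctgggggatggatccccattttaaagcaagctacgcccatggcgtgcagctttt
CG7601/CIA30: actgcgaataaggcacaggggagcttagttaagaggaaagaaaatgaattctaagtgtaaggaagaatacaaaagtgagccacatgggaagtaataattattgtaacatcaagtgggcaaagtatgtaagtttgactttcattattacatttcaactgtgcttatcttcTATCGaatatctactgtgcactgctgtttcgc
Tcs5/CHMP2B: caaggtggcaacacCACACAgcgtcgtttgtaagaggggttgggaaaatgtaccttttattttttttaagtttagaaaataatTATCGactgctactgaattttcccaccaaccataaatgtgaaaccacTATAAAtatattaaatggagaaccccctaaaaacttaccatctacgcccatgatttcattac
Art3/mRpS10: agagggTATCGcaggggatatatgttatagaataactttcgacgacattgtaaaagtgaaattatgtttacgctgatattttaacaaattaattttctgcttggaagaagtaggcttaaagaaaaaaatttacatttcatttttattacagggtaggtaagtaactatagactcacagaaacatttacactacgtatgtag
mRpS23/CenG1A: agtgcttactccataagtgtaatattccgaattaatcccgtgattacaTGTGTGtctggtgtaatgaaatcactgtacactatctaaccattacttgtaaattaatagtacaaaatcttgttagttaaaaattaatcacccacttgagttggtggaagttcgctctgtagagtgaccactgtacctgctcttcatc
CG5611/Mtl: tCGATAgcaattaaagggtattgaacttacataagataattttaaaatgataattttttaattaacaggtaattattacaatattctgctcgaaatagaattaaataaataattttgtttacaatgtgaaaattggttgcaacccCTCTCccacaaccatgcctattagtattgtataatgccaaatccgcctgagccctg
brm/Arl1: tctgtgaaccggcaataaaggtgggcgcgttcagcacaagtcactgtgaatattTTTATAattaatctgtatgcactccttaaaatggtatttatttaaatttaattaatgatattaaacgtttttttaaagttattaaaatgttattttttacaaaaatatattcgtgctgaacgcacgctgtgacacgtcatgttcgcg
Atat/Shc: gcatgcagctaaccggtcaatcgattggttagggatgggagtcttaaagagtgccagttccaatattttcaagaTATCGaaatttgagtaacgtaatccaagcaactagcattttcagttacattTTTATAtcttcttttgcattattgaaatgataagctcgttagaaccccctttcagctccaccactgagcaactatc
The GC content of these 8 windows ran from 29.9 to 38.8%, and the Ugalt/eIF2Bbeta window holds none of the 10 patterns.

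The bases that would satisfy the rule came to 4.30 Mb, 3.12% of the main chromosomes, and held 126 summits per Mb. All other bases within 1000 bp of a TSS came to 22.9 Mb with 984 summits, or 43.0 per Mb, and the bases beyond came to 110 Mb with 11.9 per Mb. Per Mb, divergent pairs were thus more densely covered than other promoters, though every base there has TSSs of 2 or more genes in reach. The comparison was not matched on the number of promoters or on distance to a TSS. Divergent pairs gave 35.4% of the 1524 promoter peaks (95% exact interval 33.0 to 37.9%, counting error only). The same share was 35.4% of 828 promoter peaks in the list of replicate 1 and 36.5% of 1136 in that of replicate 2. The rest of the promoter peaks were 405 within 200 bp of a TSS and 579 at 200 to 1000 bp.

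By genes, 1249 of 6198 genes of a pair up to 2000 bp apart (20.2%, interval 19.2 to 21.2%) had a summit within 1000 bp. Of the 7770 genes in no such pair, 628 did (8.08%, 7.49 to 8.71%). A gene with a divergent neighbour was therefore more often near a summit than one without, though a gene of a pair also has a neighbour's promoter in its window. At a peak of the divergent class stood 1046 of the 6198 paired genes, or 16.9%.

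In strength, the class was close to other promoter peaks except among the very strongest. The signal value, the authors' own height for each peak and comparable only within a list, had a median of 79.1 at divergent pairs, against 73.1 at other promoters within 200 bp and 78.8 at 200 to 1000 bp. The strongest 10% of peaks lay above 227 at divergent pairs, and above 221 and 205 in the other promoter classes. The ratio of the divergent median to that of other promoter peaks was 1.03 in the list of the whole experiment, 1.11 in the list of replicate 1 and 1.04 in that of replicate 2, and it fell below 1, to 0.997, when each gene had its 5′-most TSS only. Among promoter peaks alone, of which the class made up 35.4%, it gave 12 of the strongest 20 (60%), 26 of the strongest 50 (52%), 41 of the strongest 100 and 75 of the strongest 200 (37.5%). Of the 20 strongest peaks anywhere, 11 were at divergent pairs (55%), and so were 33 of the strongest 100 (33.0%) and 221 of the strongest 1000 (22.1%), beside 19.0% of all peaks. Each replicate's list also had 11 such peaks among its strongest 20. The median width was 324 bp in all 3 promoter classes.

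The strongest peak of the whole list stood between Ugalt (FBgn0024994), a transporter of UDP-galactose into the Golgi, and eIF2Bbeta (FBgn0024996), a subunit of the exchange factor that recharges the translation initiator eIF2. It spans chrX:2703726-2704029 on dm6 and is intergenic. The signal value was 1055 in the list of the whole experiment, 444 in replicate 1 and 617 in replicate 2. The summit lay 34 bp upstream of the Ugalt TSS and 685 bp from that of eIF2Bbeta, so it sits at one end of the 719-bp stretch and not in its centre.

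Next came CG7601/CIA30 on chr3R:29736707-29736981, whose plus-strand gene encodes an assembly factor of respiratory complex I. Its signal value was 804, with 384 in replicate 1 and 420 in replicate 2. Tcs5/CHMP2B, on chr3L:5139355-5139630, pairs a kinase of the tRNA-modifying KEOPS complex with a subunit of the membrane-cutting ESCRT-III complex. Its signal value was 801, with 371 in replicate 1 and 425 in replicate 2. In both pairs the TSSs were 220 to 224 bp apart and the summit lay near the middle, 101 and 92 bp from the minus-strand TSS. The GC content over 101 bp at these summits was 31.7 and 26.7%, beside a median of 30.7% over the class.

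Among the 8 strongest peaks, 3 were at genes of the mitochondrial ribosome. mRpL41/CG8079 had a signal value of 781 (370 in replicate 1 and 420 in replicate 2), Art3/mRpS10 one of 752 (341 and 406 in the same order) and mRpS23/CenG1A one of 702 (331 and 372). Art3 is an arginine methyltransferase, and CenG1A is named for its likeness to mammalian centaurins. In each of these the summit lay between the TSSs, 132, 121 and 96 bp from the nearer one.

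Other strong peaks lay past a TSS, inside one of the genes. At Dpit47/Adf1 (744, with 410 in replicate 1 and 352 in replicate 2) the summit was 785 bp into Adf1, in an intron of this transcription factor gene, while the pair's TSSs were 152 bp apart. PNPase/Gprk2 (705, with 333 and 369) had its summit 81 bp into PNPase, which encodes polynucleotide phosphorylase, an enzyme that degrades RNA in mitochondria. At Chro/Ssl1 (697, with 325 and 376) it was 77 bp into Chro, which encodes the architectural protein Chromator, and Ssl1 encodes a subunit of the general transcription factor TFIIH. Pex11ab/CG8320 (686, with 350 and 337) had TSSs just 33 bp apart and its summit 102 bp into CG8320.

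Among the 20 strongest the signal value ran from 403 to 1055, with 133 to 444 in replicate 1 and 215 to 617 in replicate 2. All 20 overlapped a peak of both replicates, and replicate 2 gave the higher value at 18, without a common scale between the lists. The exceptions were Dpit47/Adf1 and Pex11ab/CG8320. At 11 of the 20 the summit lay between the TSSs and at 9 it lay outside, but at 19 it was within 150 bp of one of them. Further pairs of this group were CG5611/Mtl (574), mRpL23/CG9004 (524), CG1275/Elp5 (474), brm/Arl1 (428) and Atat/Shc (415). Mtl is a small GTPase of the Rac kind, Elp5 a subunit of Elongator, brm the ATPase of the SWI/SNF remodelling complex, Arl1 a GTPase of the Golgi, Atat a tubulin acetyltransferase and Shc a signalling adaptor. The remaining ones were tank/CG12194 (480), CG8372/CG8360 (433), Fbw5/CG9147 (413), CG3437/CG3552 (410) and CG5757/CG5098 (403).

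**Figure D1:**
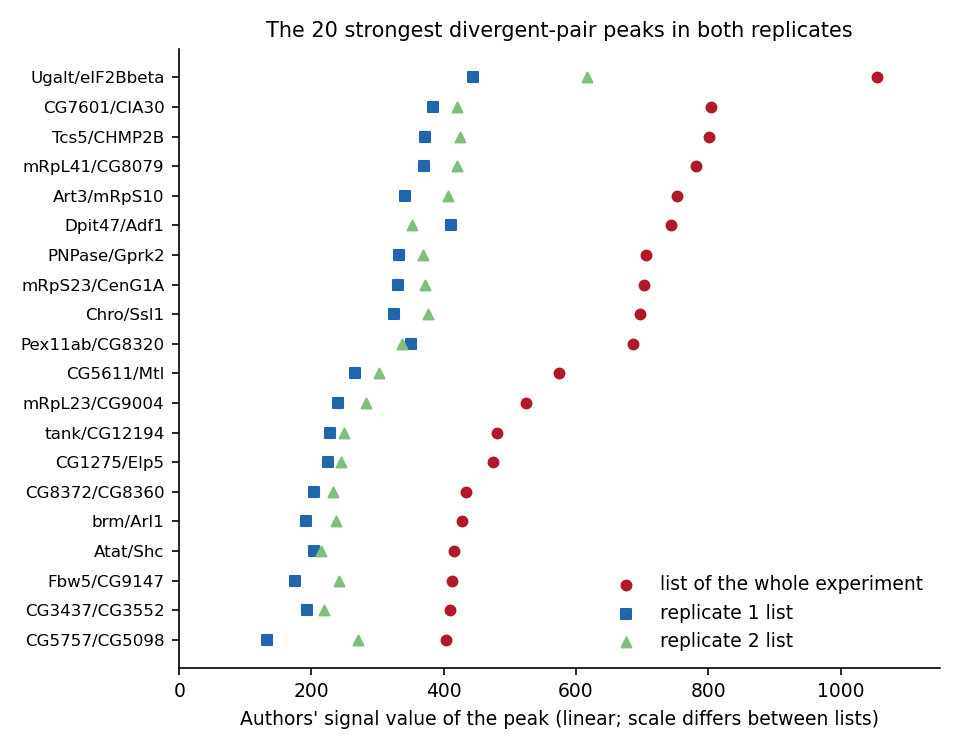
The authors' signal value (horizontal axis, linear) of the 20 strongest divergent-pair peaks that overlap a peak of both replicates, in the list of the whole experiment (circles), replicate 1 (squares) and replicate 2 (triangles). Ugalt/eIF2Bbeta is highest in all 3 lists, at 1055, 444 and 617, and triangles lie right of squares at 18 of the 20 pairs.

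Peaks of the class were somewhat more often found in both replicates than the list as a whole. Of the 540, 256 (47.4%, interval 43.1 to 51.7%) overlapped a thresholded peak of both replicates, against 42.5% (37.6 to 47.4%) of other promoter peaks within 200 bp and 45.6% at 200 to 1000 bp. Over all 2841 peaks the share was 40.8%. The intervals of the promoter classes overlap. Without the peaks whose score fell short of the cap of 1000, the divergent share was 54.7%, and with the ranked lists of the replicates, which are not thresholded, it was 98.9%. A further 33 peaks were found in replicate 1 alone, 149 in replicate 2 alone and 102 (18.9%) in neither.

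Over the 256 peaks in both, the replicates ranked the pairs alike (Spearman's rho 0.82, Pearson's r of log2 signal values 0.89, a description over peaks that share libraries). Replicate 2 gave the higher value at 191 of them (74.6%), by a median ratio of 1.15. Those in both had a median signal value of 138, and those in neither one of 51.9 with a highest value of 86.8. The strongest in neither was CG14965/Hsp83, the gene of the Hsp90 chaperone, at 86.8 (37.7 in the ranked list of replicate 1 and 44.6 in that of replicate 2). CG13185/cuff followed at 83.2 and Alh/CG10098 at 76.1. Of the 102, 100 were present in the ranked lists of both replicates, which hold nearly all peaks.

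The weakest peaks of the class overlapped stronger ones. All 30 with a signal value under 30 overlapped a stronger peak of the same list, and the lowest value of a peak that overlapped no other was 37.9. The 3 lowest were wmd/levy at 2.91, skd/Pdss2 at 2.67 and Idua/Gr32a at 2.15, where the overlapping neighbours at the same pairs had 110, 57.3 and 86.5. Their replicate matches are the neighbours' matches. Left out, such peaks lowered the class to 507, with 35.2% of promoter peaks and 48.1% in both replicates. Pairs with separate summits were also found: Stt3A/bves had peaks of 263 and 51.8, and Trmt6/Ent2 had 251 and 80.7. GluProRS/AP-1sigma had 201 and an overlapping one of 16.0.

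Summits lay mostly in the stretch that the genes share. The TSSs were 304.5 bp apart in the median (236 to 481 bp between quartiles, 6 to 1500 bp over all), and 521 of the 540 peaks were at pairs up to 1000 bp apart. In 424 (78.5%, interval 74.8 to 81.9%) the summit was between the TSSs, and in 116 it was outside, by a median of 60.5 bp. When each gene kept its 5′-most TSS only, 70.2% lay between. The nearer TSS of the pair was 99.0 bp away in the median, and 470 summits (87.0%) were within 200 bp of some TSS. Neither gene was favoured by much: the minus-strand TSS was nearer in 254, the plus-strand one in 285, and 1 was equally far from both. With the stretch split into 3 equal segments, the middle one held 200 of the 424 summits (47.2%). Annotated exons held 137 summits (25.4%), introns 81 (15.0%), and 322 (59.6%) were intergenic.

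**Figure D2:**
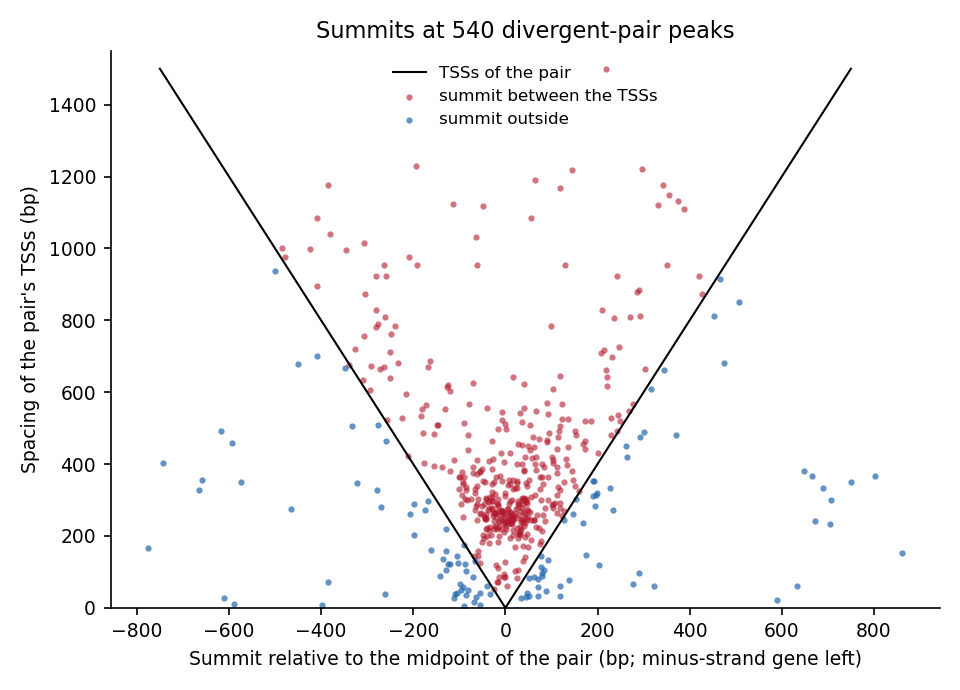
Position of each of the 540 summits relative to the midpoint of its pair (horizontal axis, bp, minus-strand gene to the left) against the spacing of the TSSs (vertical axis, bp). Black lines mark the TSSs; red points, 424, lie between them and blue points, 116, lie outside. Points crowd near the midpoint at 200 to 350 bp and lie farther from it at wider pairs.

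How the summit lay depended on the spacing. At pairs up to 100 bp apart, 9 of 51 summits (17.6%) were between the TSSs, at 100 to 200 bp 26 of 46 (56.5%), and at 200 to 350 bp 195 of 221 (88.2%). Tight pairs leave little room between them, and their summits sat a median of 65.5 bp beyond a TSS when outside. In pairs 200 to 350 bp apart, summits between the TSSs lay a median of 34.5 bp from the midpoint. At 500 to 750 bp that distance was 172.5 bp. Over all summits at that spacing, those outside included, the nearer TSS was a median of 111 bp away. The closest pairs were CG3032/CG4593, 6 bp apart, with a signal value of 95.1 (41 in replicate 1 and 54.4 in replicate 2), SerRS/CG17260, 8 bp apart, with 163 (83.8 and 78.7), and CG9588/Lkb1, 8 bp apart, with 92.9 (45.4 and 45.1). The widest was Hsp67Bc/Hsp22, small heat shock genes 1500 bp apart, with 65.6 (35.1 and 35.7). Spacing and signal value were weakly related over the 540 peaks (rho -0.20, r with log2 signal -0.13, a description).

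Annotated pairs of one spacing class carried summits more often than the others. Of 2667 annotated pairs up to 1000 bp apart, 542 had a summit within 1000 bp of both TSSs (20.3%, interval 18.8 to 21.9%). At 200 to 350 bp it was 244 of 768 pairs (31.8%, 28.5 to 35.2%), against 85 of 605 (14.0%) at 50 to 200 bp and 170 of 1113 (15.3%) at 350 to 1000 bp. The step was sharp on the lower side, with 10.7% of pairs at 150 to 200 bp and 33.5% at 200 to 250 bp. Pairs up to 50 bp apart reached 23.8% (17.8 to 30.6%), an interval that overlaps that at 200 to 350 bp. The window that satisfies the rule shrinks as pairs widen, and per Mb of it the counts were 193 summits at 200 to 350 bp, 79.0 at 50 to 200 bp and 120 at 350 to 1000 bp.

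The same class was highest in each replicate's own list. In replicate 1 the shares were 18.5% at 200 to 350 bp, 9.09% at 50 to 200 bp and 7.55% at 350 to 1000 bp. In replicate 2 they were 27.1, 11.7 and 10.9% in that order. With the 5′-most TSS of each gene they were 31.7, 14.2 and 15.2%. Pairs up to 50 bp apart had 14.9% (interval 10.1 to 21.0%) in replicate 1 and 19.9% (14.3 to 26.5%) in replicate 2. These intervals overlap those at 200 to 350 bp, 15.8 to 21.4% and 24.0 to 30.4% in that order. At 200 to 350 bp the stretch between the TSSs had about the same GC content in pairs with a summit (34.0%) and without (34.2%). The 101 bp at its midpoint, however, had 24.8 and 27.7%. Between the TSSs of pairs at 50 to 200 bp it was 43.4% with a summit and 42.2% without. The part of base composition in the difference between spacing classes was not tested.

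**Figure D3:**
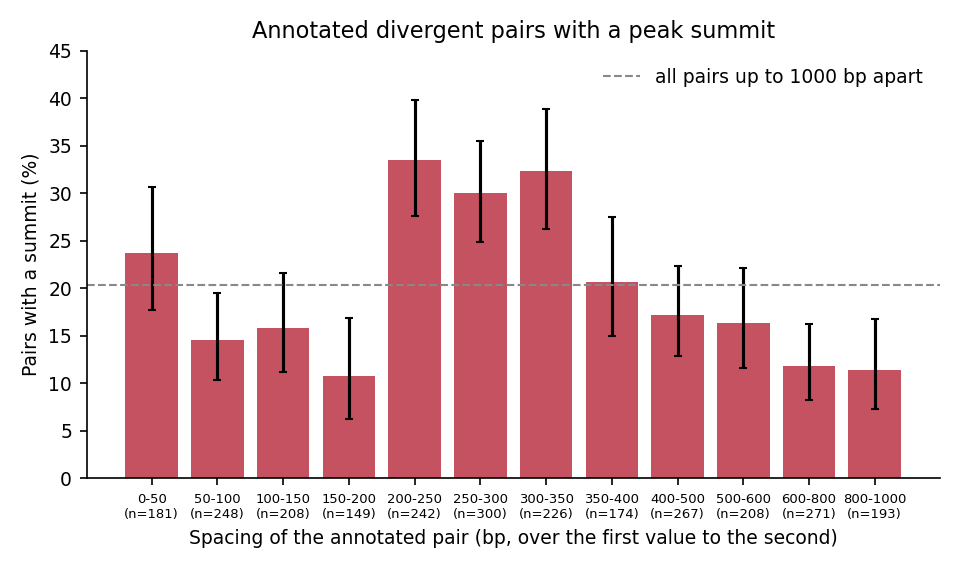
Share of annotated divergent pairs with a summit within 1000 bp of both TSSs (vertical axis, %) by the spacing of their TSSs (horizontal axis, bp). Bars show the share and lines its 95% exact interval, which covers counting error only; the dashed line is the share over all 2667 pairs, 20.3%. The 3 bars from 200 to 350 bp are the highest of the 12, the first of them at 33.5%.

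The X chromosome carried fewer such peaks. Of its 403 pairs, 53 had a summit (13.2%, interval 10.01 to 16.8%), against 489 of 2253 pairs on the autosomal arms (21.7%, 20.02 to 23.5%), with the share over all pairs at 20.3%. In replicate 1 these were 6.45% on X and 12.5% on the arms, and in replicate 2 they were 10.2 and 17.5%. At the favoured spacing of 200 to 350 bp it was 19 of 111 X pairs (17.1%, 10.6 to 25.4%) and 225 of 656 autosomal pairs (34.3%, 30.7 to 38.1%). Up to 200 bp apart it was 12.2% (6.82 to 19.6%) on X and 17.1% (14.3 to 20.2%) on the arms. Pairs 350 to 1000 bp apart had 11.3% (7.04 to 16.9%) on X and 16.1% (13.8 to 18.6%) on the arms. In both of these classes the intervals of X and the arms overlap. Genes outside pairs ran the other way, with a summit near 130 of 1252 on X (10.4%, 8.75 to 12.2%) and 493 of 6447 on the arms (7.65%, 7.01 to 8.32%). The 4 arms lay between 19.4 and 23.9%, and none of the 11 pairs of chromosome 4 had a summit. The X and autosomes were compared after their values were seen, and sex and copy number in the embryos are not given, so their part was not tested.

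**Figure D4:**
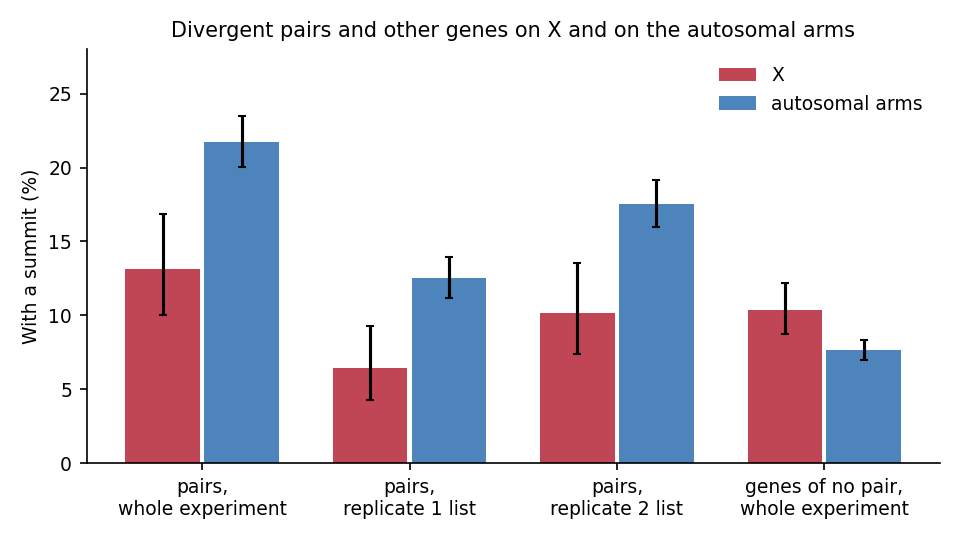
Share with a summit (vertical axis, %) on X (red) and on the 4 autosomal arms (blue), for divergent pairs up to 1000 bp apart in the list of the whole experiment and in each replicate's list, and for genes of no pair up to 2000 bp apart. Lines are 95% exact intervals over pairs or genes. X is lower for pairs in all 3 lists and higher for genes of no pair.

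Genes of the mitochondrial ribosome held the strongest peaks by median among the 18 lists examined, and those of the cytoplasmic ribosome had the largest share of paired genes at a peak. Shares are of the list's genes that have a divergent partner within 2000 bp, beside 16.9% for all paired genes. Of 57 paired cytoplasmic ribosomal protein genes, 23 (40.4%, interval 27.6 to 54.2%) stood at a divergent-pair peak, with a median signal value of 77.4. Of all 86 genes of this list, paired or not, 35 had a summit within 1000 bp, beside 13.4% of all protein-coding genes. The high share was thus not shown to be particular to divergent pairs. RpL32/CG7943 was strongest at 205 (100.5 in replicate 1 and 100.004 in replicate 2), then RpL34b/CG8132 at 178 (86.9 and 93.4), RpS27/Nup37 at 171 (59.1 and 106) and Ripalpha/RpL7 at 170 (82.7 and 86.7). Of the 25 peaks at their pairs, 7 overlapped a peak of both replicates, a smaller share than the 47.4% of the class and the 40.8% of all peaks. The mitochondrial list had 15 of 60 paired genes (25%, 14.7 to 37.9%), with a median of 154. Of their 15 peaks 9 were in both replicates, and mRpL20/Icmt (217, with 97.4 and 124) followed the 4 already named.

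Other lists of housekeeping genes ran from 6.67 to 28.6%, on both sides of the 16.9% of all paired genes. tRNA synthetases, which charge tRNAs, had 7 of 25 (28%), with Dhc64C/LeuRS-m at 207 (92.2 in replicate 1 and 116 in replicate 2), a summit that lay 692 bp into the dynein gene Dhc64C. Mediator, the bridge between activators and RNA polymerase II, had 6 of 21 (28.6%), with elm/MED27 at 152 (77.0 and 75.1) and CG12321/MED17 at 108 (42.2 and 63.7). RNA polymerases and general factors had 9 of 39 (23.1%), with Taf5/Pex6 at 194 (67.1 and 121) and 140up/Polr2B at 131 (58.8 and 71.7). The respiratory chain had 9 of 50 (18%), replication and repair 8 of 42 (19%), splicing 6 of 33 (18.2%), translation factors 6 of 36 (16.7%) and the nuclear pore 3 of 22 (13.6%). The proteasome had 2 of 30 (6.67%), Rpn3 at 125 (58.1 and 68.1) and Rpt5 at 60.5, in neither replicate's list. Mitochondrial import had 1 of 9, Tom7. RPA1/Mcm2, a single-strand binding protein and a helicase subunit of replication, was the one pair with both genes in the same list. Its signal value was 59.5 in the list of the whole experiment and 39.4 in replicate 2, and it overlapped no thresholded peak of replicate 1.

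Lists of regulators gave few peaks in number, but they held just 1 to 18 paired genes each. Their shares of paired genes at a peak ran from 0 to 33.3%, on both sides of that of all paired genes. Of all genes of a list, paired or not, 9 of 25 architectural and insulator genes had a summit within 1000 bp. So did 6 of 30 for Polycomb and Trithorax, 9 of 25 for Notch, 8 of 23 for JNK and dorsal closure and 0 of 11 for Hox. Over all protein-coding genes the share with a summit within 1000 bp was 13.4%. Architectural and insulator proteins had 5 of 15 paired genes (33.3%, interval 11.8 to 61.6%): Chro, Cp190/CG4338 at 214 (100.03 in replicate 1 and 120.2 in replicate 2), CG12974/pzg at 121 (63.2 and 54.6), Dref/RpL13 at 73.4 (52.8 in replicate 2 only) and fs(1)h. Cp190 is a cofactor of insulator complexes, and Dref encodes the factor named DREF above. Polycomb and Trithorax had 3 of 18 (16.7%), namely brm, E(z)/Cnep1r2 at 117 (33.8 and 83.5), where E(z) is the methyltransferase of Polycomb repression, and Sfmbt/CG5439 at 57.0, in neither replicate's list.

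The Notch pathway had 3 of 12 (25%): Snx21/aph-1 at 131 (43.7 and 74.4 in replicates 1 and 2), aph-1 being a subunit of the secretase that cuts Notch, CG43116/E(spl)mdelta-HLH at 79.3 and B4/kuz at 50.6. JNK signalling and dorsal closure, a process in which peb acts, had 3 of 10: bsk/CG31717 at 60.5 for the fly JNK, msn/RpL8 at 59.9 for a kinase upstream of it and CG8414/Rho1 at 53.2. None of these 3 was in both replicates. A peak counts for both genes of its pair, whichever TSS is nearer. The summit at msn/RpL8 lay in an exon of RpL8, 8 bp past its TSS and 924 bp from that of msn. RpL8 is also counted in the cytoplasmic ribosomal list. The other 2 summits were nearer the listed gene, 151 bp from the TSS of bsk and 56 bp from that of Rho1. Hox genes and cofactors had 1 gene in a pair and none at a peak. Odorant and gustatory receptors had 2 of 25 (8%), Gr32a and Or88a. With lists this small the intervals are wide, and that of every list named here except the cytoplasmic ribosomal proteins includes 16.9%.

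The summits lay in AT-rich dips flanked by GC-rich genes. GC content over 101 bp had a median of 30.7% at divergent-pair summits, against 33.7% at other promoters within 200 bp and 32.7% at 200 to 1000 bp, while all TSSs had 43.6%. At 200 bp upstream in genome coordinates the median was 40.6% in the class, against 44.6% in both other promoter classes, whereas at 600 bp either side it was 50.5% in the class, against 41.6 to 43.6% in the other promoter classes. At the midpoints of annotated pairs, with a summit and without, the medians were 24.8 and 27.7% at a spacing of 200 to 350 bp and 29.7 and 30.7% at 350 to 1000 bp. They were 42.6% in both at 50 to 200 bp, and 47.5 and 43.6% up to 50 bp, where pairs with a summit were the richer in GC. Within the class, GC was lower at stronger peaks: in 4 groups of 135 from the strongest down, the medians were 26.7, 28.7, 31.7 and 37.6%. This split by strength was chosen after the values were seen.

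**Figure D5:**
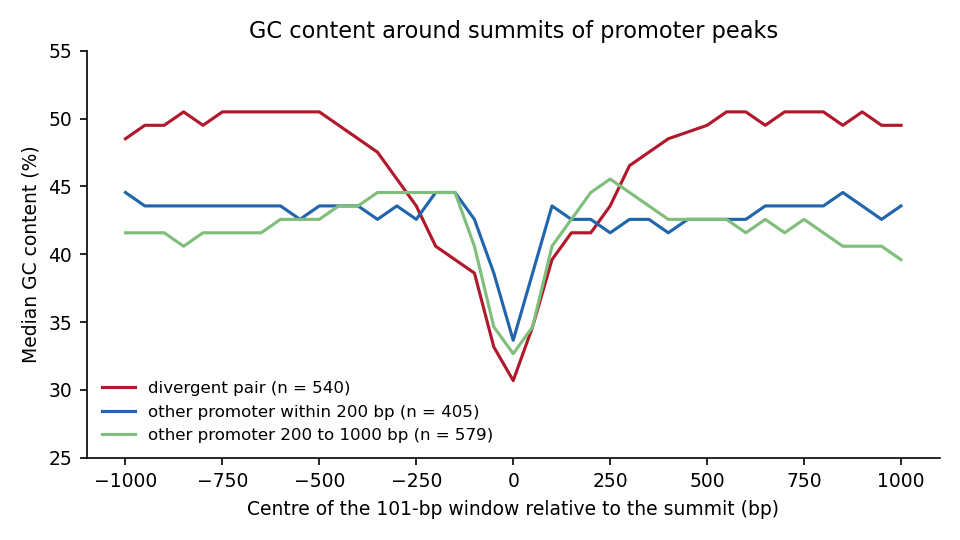
Median GC content of 101-bp windows (vertical axis, %) by distance of the window from the summit (horizontal axis, bp), for divergent-pair peaks (red, 540), other promoter peaks within 200 bp of a TSS (blue, 405) and at 200 to 1000 bp (green, 579). All 3 dip at the summit, to 30.7, 33.7 and 32.7%, and from 300 bp outwards the divergent class is the richest in GC, while at 150 to 200 bp it is the poorest.

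Several short patterns differed in frequency between the class and other promoter peaks. In windows of 100 bp either side of the summit, both strands, TATCGATA, the element bound by DREF, was in 9.63% of divergent-pair peaks (interval 7.28 to 12.4%). It was in 4.69% (2.85 to 7.23%) of other promoter peaks within 200 bp, 0.173% of those at 200 to 1000 bp, and 6.44% of all TSSs. Windows at the midpoints of annotated pairs held it in 7.01% (5.01 to 9.50%) of pairs with a summit and 8.94% (7.76 to 10.2%) of pairs without. Among the 470 divergent-pair summits within 200 bp of a TSS it was in 10.9%. From the strongest 135 peaks down the shares were 2.22, 5.19, 14.8 and 16.3%, and none of the 20 strongest held it. The list of replicate 1 alone gave 4.78%, that of replicate 2 alone 7.95%. Among peaks on X, 2L, 3L and 3R with the summit between the TSSs, the strongest that keep the element in the window outside exons are at fws/Lamtor3 (370, with 178 in replicate 1 and 185 in replicate 2), Ttc1/CG14882 (121, with 49.2 and 74.3) and CG12321/MED17, shown to place it relative to the summit. The windows, in the same layout as the sequences above, are chr2L:17481047-17481230, chr3R:16443008-16443193 and chr3R:18188870-18189070.
fws/Lamtor3: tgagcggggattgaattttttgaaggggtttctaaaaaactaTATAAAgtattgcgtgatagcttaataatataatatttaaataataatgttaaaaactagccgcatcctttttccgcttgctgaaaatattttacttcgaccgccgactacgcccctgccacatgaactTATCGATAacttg
Ttc1/CG14882: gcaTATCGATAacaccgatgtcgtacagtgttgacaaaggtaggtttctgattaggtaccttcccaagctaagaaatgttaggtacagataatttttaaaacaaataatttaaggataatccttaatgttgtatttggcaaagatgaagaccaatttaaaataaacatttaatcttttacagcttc
CG12321/MED17: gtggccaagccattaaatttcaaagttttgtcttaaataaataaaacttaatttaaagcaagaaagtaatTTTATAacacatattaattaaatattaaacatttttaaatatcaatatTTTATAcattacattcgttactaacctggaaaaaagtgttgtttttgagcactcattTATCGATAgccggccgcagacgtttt
In all 3 the element lies toward an end of the window and not at the summit.

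CGATA, the word bound by BEAF-32 and contained in TATCGATA, was in 40.6% of the class (interval 36.4 to 44.8%), against 34.6% (29.9 to 39.4%) and 20.2% (17.0 to 23.7%) of the nearer and farther other promoter peaks, 37.1% of all TSSs and 42.0% of midpoints without a summit. TATAAA, the letters of the TATA box, was in 40.7% (36.6 to 45.02%), against 30.1% (25.7 to 34.8%) and 36.1% (32.2 to 40.2%) of the other classes in that order. The interval of the farther peaks overlaps that of the class. TSSs held TATAAA in 26.9% and such midpoints in 38.4%. GAGAG, bound by the GAGA factor, was rarer in the class, in 15.6% (12.6 to 18.9%), against 28.1% (23.8 to 32.8%) and 29.0% (25.3 to 32.9%), 24.97% of TSSs and 14.5% of midpoints. The share of CGATA was 35.2% in each replicate's own list, near the 34.6% of the nearer other promoter peaks. Windows at the midpoints of pairs with a summit, set against midpoints without one, held CGATA in 38.4 and 42.0%, TATAAA in 45.02 and 38.4%, and GAGAG in 14.6 and 14.5%. AT-rich words are also more frequent where GC is low, and the part of base composition was not tested.

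The remaining patterns differed less. CAGCTG, an E-box, was in 13.0% of the class, against 11.4 and 7.94% of the other promoter classes and 13.4% of TSSs. CACACA was in 12%, against 15.6, 14.7 and 16.1%. GGTCACACT, the core promoter word bound by M1BP, was in 2.78%, against 2.47, 0 and 4.42%, and the count of 0 of 579 allows up to 0.635% by the exact interval. CCACCCC, letters of the C-rich site of mammalian RREB1, was in 2.22%, against 1.98, 2.25 and 1.67%. GCGCGC was in 2.59%, against 4.44, 1.38 and 4.50%, and CAGGTAG, bound by Zelda, in 0.741%, against 0.247, 0.864 and 1.08%.

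At the edge of the rule, the 18 peaks whose farther TSS lay 900 to 1000 bp from the summit had a median signal value of 70.3, and the 20 peaks with it at 1000 to 1100 bp, just outside, had 67.4.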

How the data were processed

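ChIP-seq peaks of peb-eGFP were taken from 1 group of 2 biological replicates, from sonicated chromatin of 200 to 800 bp, per the labels. The lists are on dm6 and were thresholded by the irreproducible discovery rate (IDR), per the file headers; for the experiment they were called on the alignments of both replicates together. The aligner and peak caller are not given in the sources used here. The deposited signal value is the peak caller's own and was used within a list only. The score column, as deposited, scales the IDR up to a cap of 1000. The summit is the start plus the offset the authors deposited. The last 8 columns of each ranked list are of unknown sample and were left unused. No read numbers are given, so depth is unknown and intervals (Clopper-Pearson, 95%) cover counting error only.

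TSSs were those of all transcripts of protein-coding genes in Ensembl release 115 (BDGP6.54), on 7 main chromosomes; all peak ends lay within their lengths. With several pairs in reach, the one with the least summed distance was kept. Replicate overlap required 1 bp, and the strongest overlapping peak gave the replicate's value. Sequences came from the RefSeq copy of the assembly and were cut back to bases outside exons, a change from the planned windows. The members and lists were chosen with earlier results of these data known. Named peaks were the 20 strongest in both replicates, the weakest, closest and widest 3, up to 4 per each of 18 gene lists, pairs within 1 list, the 3 strongest in neither replicate and the 3 strongest pairs with several summits. No test was made across regions. Alternatives were other lists, TSS sets, windows and overlaps, and each replicate's own list. The rule was tested on simulated data. Software was matplotlib 3.10.9, scipy 1.17.1, pandas 2.3.3 and numpy 2.4.6 under Python 3.11.15.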

Additional observations from a re-analysis of the deposited data

How the results depend on the processing

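Of 116 recomputed values, 69 stayed within set bounds of the main value, 46 moved and 1 reversed. The bounds were the interval of a share, the spread between the replicate lists, or a factor of 1.5 for the number of peaks. With 1 replicate's list in place of the joint one, the class held 293 to 415 peaks (540 in the joint list) and 35.4 to 36.5% of promoter peaks, the ratio of median signal was 1.04 to 1.11, the median spacing 287 to 290 bp, the share with the summit between the TSSs 78.8 to 80.0%, the share of annotated pairs with a summit 11.5 to 16.3%, TATCGATA 4.78 to 7.95%, CGATA 35.2% in both and TATAAA 44.6 to 46.1%. With the 5′-most TSS of each gene the ratio of medians was 0.997, on the other side of 1, the share of promoter peaks 40.0%, the median spacing 288 bp and the share between the TSSs 70.2%. With TSSs within 500 bp the ratio was 1.09, the spacing 278 bp and the share of pairs 16.6%. With a score of 1000 only, the share in both replicates was 54.7%, the spacing 298.5 bp and the share of pairs 17.9%. The conservative list gave a spacing of 301.5 bp, summits required between the TSSs 332 bp, and leaving out peaks that overlap a stronger one, an alternative chosen after seeing the data, 301.0 bp. The share in both replicates was 41.1% with a reciprocal overlap of 50% and 98.9% with ranked lists. The share of pairs was 22.8% up to 500 bp apart and 15.9% up to 2000 bp. Windows of 50 bp gave TATCGATA 3.70%, CGATA 18.3% and TATAAA 25.4%, and windows of 200 bp gave 17.4, 63.0 and 59.3%, as longer windows hold more words. The cause of the other moves was not tested. No paired analysis was possible because there is 1 group. Depth is unknown, so a pair without a summit is not shown to be unbound.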

Other observations

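The peak with the most genes in reach stood at mod(mdg4), whose product is a cofactor of insulator complexes and whose transcripts are trans-spliced, so that short precursor genes on both strands are annotated there. It spans chr3R:21365298-21365621 on dm6 and had 10 protein-coding genes within 1000 bp of its summit. The signal value was 152 in the list of the whole experiment, 73.2 in replicate 1 and 75.3 in replicate 2. The pair nearest the summit, pre-mod(mdg4)-E/pre-mod(mdg4)-Y, is 121 bp apart, and the summit lies in an exon 28 bp from a TSS. The 1 pair with 3 peaks was Ank2/Mcad, 955 bp apart, with signal values of 48.0, 46.9 and 5.39. The first of these overlapped a peak of neither replicate, and the other two overlapped 1 peak of replicate 2, with a signal value of 39.3.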
